A study of Mus musculus with 18 samples.

Results

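Solute carriers are membrane transporters named Slc with a family number, and 161 of their genes were followed in 18 RNA sequencing libraries of mouse bone marrow-derived macrophages. The gene table has 45706 rows, of which 379 carry a symbol made of Slc and a number. Of these, 10 transporters were set aside by name (Slc2a1, Slc16a1, Slc16a3, Slc7a2, Slc7a11, Slc40a1, Slc11a1, Slc11a2, Slc39a14 and Slc13a5). A further 208 did not reach 20 raw counts in 4 libraries, and 93 of those were at 0 in every library. The 161 were thus chosen on their counts, so that they are detected is not a result. At the edge of the rule, Slc32a1 reached 20 counts in exactly 4 libraries (highest count 32), whereas Slc45a3 and Slc7a4 reached it in 3 (highest counts 46 and 39) and are not included. All 161 passed the filter on low counts that precedes the tests, and 158 had 20 counts in both unstimulated libraries. The other 3 are Slc32a1, Slc22a18 and Slc25a14, whose highest library held 7.67 CPM (counts per megaread, after TMM scaling of the library totals).

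The cells were grown from C57BL/6 bone marrow (age label 12-days) in medium with L929-conditioned medium, a source of macrophage growth factor, and were wild-type or carried RelA-TA-KI, a knock-in at RelA, a subunit of NF-kB, whose change the labels do not spell out. They were left unstimulated, or received the bacterial product lipopolysaccharide (LPS, 100 ng/ml) or the cytokine TNF (10 ng/ml) for 0.5, 1, 3 or 8 h on day 7 of culture. Each genotype and condition has 1 library, so that the 2 libraries of a condition, 1 of each genotype, serve as the matched pair in every test. No separate animals or cultures are named. The p-values therefore measure the spread left after condition and genotype are fitted, and no spread between replicate libraries enters them. Differences of the genotype effect between conditions are part of that spread, except where a test fits them. Genotype and culture cannot be told apart.

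Solute carriers move nutrients, ions, cofactors and waste across the plasma membrane and the membranes of mitochondria, lysosomes and the Golgi, by coupling to ion gradients, by exchange or down a gradient. In macrophages they feed the metabolic shift that follows bacterial sensing: amino acids, glucose and nucleosides are taken up, metals are withheld from or delivered to microbes, and mitochondrial carriers link the citric acid cycle to the cytosol. Below, the genes are ordered by what their family carries, and a change in a transcript says nothing by itself on transport.

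Library totals ran from 4663650 to 6721917 counts, and the 161 genes held 1.217% to 1.476% of them. Values are TMM-scaled CPM, in which the scaling factor was lowest at 8 h of LPS (0.6541 in wild-type and 0.5682 in RelA-TA-KI, against 0.7878 to 1.204 in the other libraries). Scaling by library totals instead moved the median log2 change of all tested genes by -0.95 at 8 h of LPS, -0.53 at 3 h of LPS and -0.25 at 8 h of TNF, so directions are relative to the median gene, and counts by totals are given beside them. In bulk RNA, fewer cells of a type and less RNA per cell cannot be told apart. Of the markers checked, 8 of 8 macrophage genes were expressed, with a summed level of 9006 to 15660 CPM. The summed level was 49.58 to 196.7 CPM for 6 lymphocyte markers, nearly all of it Il7r (49.4 to 196 CPM) with Ncr1 at 0 in every library. For 5 mast cell and basophil markers it was 6.407 to 217.1 CPM, with Hdc reaching 215 and Kit 32.4 CPM and Fcer1a at 0 in every library. The strand setting of the counting is not given in the sources used here. Genes with overlapping exons are therefore less certain. Among them, Slc15a3 overlaps Tmem132a, Slc16a6 overlaps Amz2, Slc24a5 overlaps Myef2, Slc5a6 overlaps Atraid and Slc20a1 overlaps Gm4430. Others include Slc25a25 (with Naif1), Slc20a2 (with Smim19), Slc48a1 (with Hdac7) and Slc39a13 (with Psmc3).

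Before stimulation, levels per kilobase of exon spanned a wide range among the 161 genes, from 0.516 CPM per kb for Slc22a15, an organic ion carrier, to 192 for Slc6a6, the taurine transporter. Next after Slc6a6 came Slc7a8 (109), a neutral amino acid exchanger, Slc3a2 (101), the heavy chain that brings several amino acid exchangers to the cell surface, and Slc9a3r1 (96.4), a scaffold protein named after a carrier and not itself one. Slc15a3, a lysosomal peptide and histidine transporter (94.8), the heme transporter Slc48a1 (92.9) and Slc25a5, a mitochondrial ADP/ATP carrier (84.7), followed. These levels belong to the quantity the genes were chosen on and are given as a description. Slc25a5 had wild-type values of 145 CPM unstimulated and 136, 139.8, 152 and 133 CPM through the LPS course, and its LPS change did not pass the test by TMM (-0.06 ± 0.08 on the log2 scale at 8 h, adjusted p = 0.74) but was -1.02 by library totals.

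**Figure D1:**
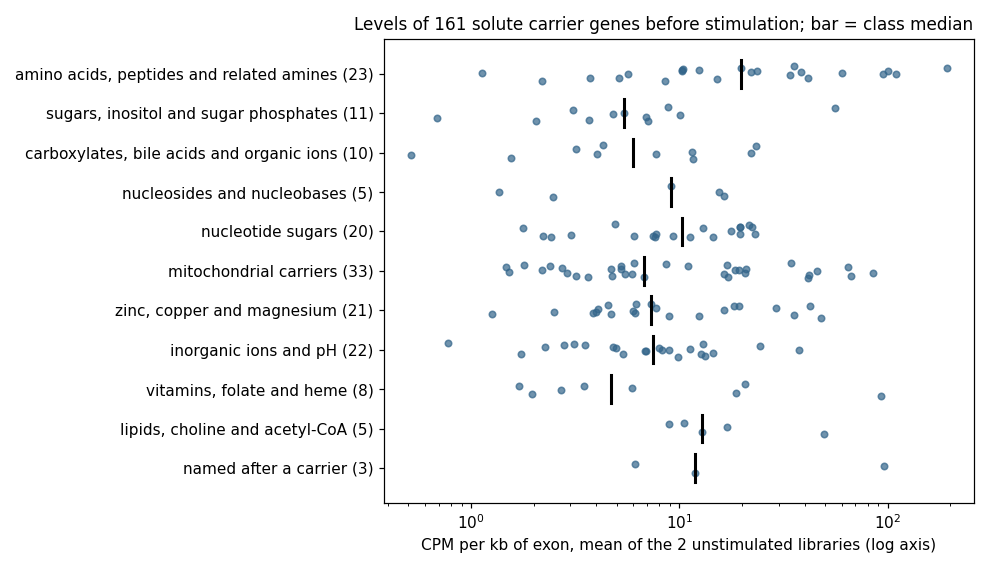
Level of each of the 161 solute carrier genes in unstimulated macrophages, as CPM per kilobase of exon (mean of the 2 unstimulated libraries, log axis), by substrate class with the number of genes in brackets. Each point is 1 gene and the bar is the class median, 19.7 for amino acid and peptide carriers and 4.7 for vitamin, folate and heme carriers.

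After LPS, 58 of the 161 solute carrier genes rose and 71 fell at an adjusted p of 0.05 or less (edgeR quasi-likelihood F test over the 4 times, direction at the time of the largest change), or 36% and 44.1%. Of all 11308 genes tested, 35.8% rose and 36.4% fell. By library totals 26 members rose and 122 fell, and of all 11308 genes 1974 rose and 7850 fell. The median of the members' largest change was -0.28 on the log2 scale, beside -0.20 for all genes tested. TNF moved fewer: 35 members rose and 27 fell, where 16.7% and 13.6% of all genes did. By library totals 22 members rose and 59 fell, beside 1324 and 2852 of all genes. The class counts below are to be read beside these shares of all genes. The LPS and TNF responses are set against the same unstimulated libraries, so their values are given side by side. In both, most of the largest changes were late. The largest change lay at 8 h for 40 of the 58 LPS rises and 63 of the 71 LPS falls, at 3 h for 15 and 6, at 1 h for 3 and 2, and at 0.5 h for none. For TNF it lay at 8 h for 29 of the 35 rises and 21 of the 27 falls. Among all genes tested it lay at 8 h for 3167 of 4047 LPS rises and 3096 of 4112 LPS falls. For TNF the counts over all genes were 1419 of 1893 rises and 1151 of 1539 falls. Without the 8 h libraries of LPS, 79 members remained called (39 up, 40 down), and without the 8 h libraries of TNF 20 did (13 up, 7 down). Of all genes 2858 were called up and 2590 down without the former, and 658 and 442 without the latter.

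**Figure D2:**
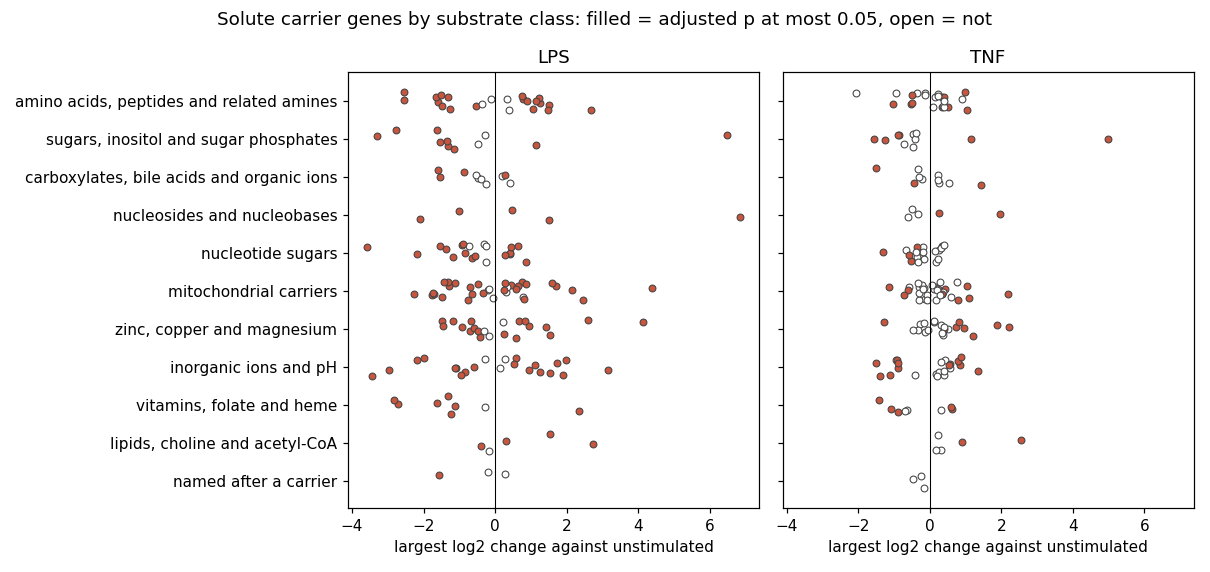
Largest log2 change of each solute carrier gene against unstimulated cells after LPS (left) and TNF (right), by substrate class. Each point is 1 gene, filled where the adjusted p is at most 0.05: 58 rose and 71 fell after LPS and 35 and 27 after TNF, against 26 and 122 and 22 and 59 when scaled by library totals. Of all 11308 genes, 1974 rose and 7850 fell after LPS by library totals, and 1324 and 2852 after TNF.

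Promoter windows of 300 bases around annotated starts were found in RefSeq (GRCm38.p6) for 126 of the 161 genes, 169 windows in all. They were searched on both strands for 5 motifs: an NF-kB site (decamer with ambiguous bases), the interferon-stimulated response element (GAAA and again GAAA after 2 bases of any kind), the amino acid response element (TGATGNAA), the metal response element (TGCACNC) and the E-box (CACGTG). The E-box stood in 14.8% of the members' windows and in 7.15% of all 32851 windows, the metal response element in 16% and 12.6%, and the NF-kB motif in 11.2% and 8.46%. The amino acid response element (2.96% and 3.97%) and the interferon-stimulated response element (1.78% and 3.44%) were rarer in the members' windows than in all. Among windows of members that rose after LPS the NF-kB motif stood in 9.09%, and among those that fell in 12.2%. The stretches below are from the members first named for their LPS response that hold a motif, 4 that rose and then Slc20a1 and Slc19a2, which fell. Capitals mark the motif, on either strand: the interferon-stimulated response element in Slc25a22, the metal response element and then an E-box in Slc31a2 and Slc12a9, the metal response element in Slc30a1, a pair of E-boxes in Slc20a1 and the NF-kB motif in Slc19a2. A match describes letters and no bound site.
Slc25a22, chr7:141435425-141435474, minus strand: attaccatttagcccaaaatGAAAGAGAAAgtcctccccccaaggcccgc
Slc31a2, chr4:62286179-62286454, plus strand: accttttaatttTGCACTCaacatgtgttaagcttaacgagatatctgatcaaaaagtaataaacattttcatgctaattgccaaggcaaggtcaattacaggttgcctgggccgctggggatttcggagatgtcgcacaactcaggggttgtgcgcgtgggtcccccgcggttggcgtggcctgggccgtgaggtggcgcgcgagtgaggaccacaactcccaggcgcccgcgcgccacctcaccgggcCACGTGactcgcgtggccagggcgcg
Slc12a9, chr5:137333663-137333807, minus strand: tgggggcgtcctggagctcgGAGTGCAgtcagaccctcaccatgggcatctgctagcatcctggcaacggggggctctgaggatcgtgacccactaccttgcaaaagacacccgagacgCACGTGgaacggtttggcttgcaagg
Slc30a1, chr1:191906718-191906764, plus strand: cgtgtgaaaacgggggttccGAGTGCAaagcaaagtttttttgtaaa
Slc20a1, chr2:129198578-129198776, plus strand: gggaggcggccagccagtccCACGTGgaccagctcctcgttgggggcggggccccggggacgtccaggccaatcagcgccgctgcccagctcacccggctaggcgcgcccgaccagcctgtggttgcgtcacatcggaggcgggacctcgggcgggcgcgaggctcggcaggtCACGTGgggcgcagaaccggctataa
Slc19a2, chr1:164248866-164248915, plus strand: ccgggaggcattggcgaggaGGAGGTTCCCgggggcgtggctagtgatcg

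Nucleoside carriers held the steepest rise. Of 5 members, 3 rose and 2 fell after LPS (1 and 4 by library totals), and 2 rose and none fell after TNF (1 and 2). The shares are 60% and 40% after LPS, beside 35.8% and 36.4% of all genes. After TNF they are 40% and 0%, beside 16.7% and 13.6%. Slc28a2 (ENSMUSG00000027219.11, chromosome 2, 122426477 to 122461137, plus strand, mm10), a sodium-coupled nucleoside transporter of the plasma membrane, stood in wild-type cells at 3.95 CPM unstimulated and at 5.58, 6.798, 20.2 and 417 CPM after 0.5, 1, 3 and 8 h of LPS. In RelA-TA-KI cells it went from 7.52 to 7.28, 10.2, 49.8 and 943 CPM. TNF gave 6.32, 4.62, 7.35 and 16.7 CPM in wild-type and 4.75, 7.09, 12.5 and 27.7 CPM in RelA-TA-KI cells. Both 8 h LPS libraries lie far above all other libraries, and both 8 h TNF libraries above both unstimulated ones. The log2 change at 8 h was 6.85 ± 0.28 after LPS and 1.97 ± 0.30 after TNF. A near-identical neighbouring gene, Gm14085, had at most 5 counts in any library, against up to 3198 for Slc28a2. Slc29a3, a lysosomal nucleoside transporter, rose by 1.51 ± 0.34 at 8 h of LPS, with 187 CPM in wild-type and 376 in RelA-TA-KI cells from 88.8 and 103. Falling were Slc17a9, which loads nucleotides into vesicles (-2.11), and Slc29a1, an equilibrative nucleoside transporter of the cell surface (-1.002). Slc43a3, a purine base transporter, passed as a rise of 0.48 at 3 h of LPS, with the opposite sign by library totals (-0.06).

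Sugar carriers mostly fell, with 1 large exception. After LPS 2 of 11 members rose and 7 fell (2 and 9 by library totals), with a median of the largest change of -1.32. These are 18.2% and 63.6%, beside 35.8% and 36.4% of all genes. After TNF 2 rose and 4 fell (2 and 7), or 18.2% and 36.4%, beside 16.7% and 13.6% of all genes. Slc2a6 (ENSMUSG00000036067.10, chromosome 2, 27021363 to 27027998, minus strand), a lysosomal member of the glucose transporter family, rose from 11.2 CPM to 24.3, 121, 464 and 1243 CPM along the LPS course in wild-type cells. The RelA-TA-KI course ran from 12.5 to 11.6, 23.6, 233 and 869 CPM. With TNF the values were 26.3, 58.3, 222 and 405 CPM in wild-type and 16.96, 21.5, 122 and 326 in RelA-TA-KI cells. From 3 h on, every stimulated library of either agent exceeded both unstimulated ones. The log2 change at 8 h was 6.49 ± 0.52 after LPS (adjusted p = 1.0e-06) and 4.99 ± 0.50 after TNF (adjusted p = 4.8e-05).

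Among the sugar carriers that fell, Slc45a4, of a family named for proton-coupled sugar transport, went in wild-type cells from 68.8 CPM to 73.1, 65.6, 14.3 and 8.39 CPM and in RelA-TA-KI cells from 80.8 to 80.7, 62.5, 23.8 and 6.78 CPM after LPS. All 4 libraries at 3 and 8 h of LPS lie below every other library. TNF took it to 43.2 and 36.6 CPM at 3 h, a smaller fall (-0.89 ± 0.20 against -3.30 ± 0.27 after LPS at 8 h). Slc2a3, a high-affinity glucose transporter, fell after LPS (-2.76) and TNF (-1.55), from 16.7 and 13.1 CPM to 1.61 and 2.65 at 8 h of LPS. Slc37a2, a sugar phosphate antiporter of the endoplasmic reticulum and the most abundant of the class before stimulation, fell from 251 to 71.3 CPM in wild-type and from 317 to 159.5 CPM in RelA-TA-KI cells. Slc37a3, of the same family, rose by 1.13 at 3 h of LPS. Slc5a3, the sodium-coupled inositol transporter, fell after LPS (-1.62 at 8 h) and rose after TNF (1.16 at 3 h, with 10.7 CPM in wild-type and 24.6 in RelA-TA-KI cells). It shares 159 exon bases with Mrps6 on the same strand.

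Amino acid and peptide carriers moved in both directions, as all genes did: 10 of 23 rose and 9 fell after LPS (4 and 15 by library totals). After TNF 5 rose and 4 fell (2 and 10). That is 43.5% and 39.1% after LPS, beside 35.8% and 36.4% of all genes, and 21.7% and 17.4% after TNF, beside 16.7% and 13.6%. Slc15a3 (ENSMUSG00000024737.2, chromosome 19, 10839727 to 10859362, plus strand) rose in wild-type cells from 536 CPM to 572, 723, 1332 and 3571 CPM after LPS and 549, 665, 820 and 1084 CPM after TNF. RelA-TA-KI cells went from 506 CPM to 563, 829, 1156 and 3113 CPM after LPS and 578, 709, 863 and 1076 CPM after TNF. All stimulated libraries exceed both unstimulated ones, and both 8 h LPS libraries exceed all others. Its log2 change was 2.68 ± 0.11 after LPS and 1.05 ± 0.10 after TNF, both at 8 h, and its relative Slc15a4, a second lysosomal histidine transporter, rose by 1.25 and 0.99 (the LPS call is lost by library totals, adjusted p = 0.087). The exchanger heavy chain Slc3a2 rose after LPS (1.15), as did the partner chain Slc7a8 (1.07; lost by library totals, adjusted p = 0.097), whereas other partner chains fell: the log2 change of Slc7a6, a cationic and neutral amino acid exchanger, was -2.55 ± 0.18 and that of the large neutral amino acid exchanger Slc7a5 -1.47 ± 0.27.

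Slc43a2, a facilitative carrier of branched-chain and other neutral amino acids, stood in wild-type cells at 599.5 CPM and after LPS at 592, 546, 302 and 153 CPM. In RelA-TA-KI cells it went from 616 to 601, 564, 284 and 61.6 CPM. With TNF at 8 h it held 810 and 634 CPM. The 4 libraries at 3 and 8 h of LPS lie below all the others, and the log2 change at 8 h was -2.55 ± 0.26 (adjusted p = 2.2e-05), whereas after TNF it was 0.23 ± 0.24 (adjusted p = 0.8). The sodium-coupled transporter Slc38a2, which adapts to amino acid supply, peaked early, at 426 and 474 CPM after 1 h of LPS from 179.7 and 202. It then stood below its starting level at 8 h, with 106 and 61.6 CPM. Its relative Slc38a1 peaked at 3 h (1.47), and so did the aromatic amino acid carrier Slc16a10 (1.498). The glutamine and neutral amino acid exchanger Slc1a5 (-1.65), the arginine transporter Slc7a1 (-1.33) and the lysosomal proton-coupled Slc36a1 (-1.26) fell. The taurine transporter Slc6a6 rose by 0.89 by TMM but changed by -0.06 by library totals.

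Mitochondrial carriers, the largest class with 33 members, split nearly evenly after LPS, 13 up and 14 down (5 and 25 by library totals). The shares, 39.4% and 42.4%, stand beside 35.8% and 36.4% of all genes. After TNF 7 rose and 3 fell (2 and 11), or 21.2% and 9.09%, beside 16.7% and 13.6% of all genes. Slc25a22 (ENSMUSG00000019082.15, chromosome 7, 141429744 to 141437892, minus strand), which carries glutamate into mitochondria, went in wild-type cells from 17.2 CPM to 19.1, 20.8, 78.7 and 369 CPM after LPS and 18.8, 17.6, 19.98 and 86.3 CPM after TNF. RelA-TA-KI cells gave 17.6 CPM, then 22.2, 16.6, 89.6 and 356 CPM after LPS and 17.98, 17.1, 18.7 and 73.2 CPM after TNF. The 4 libraries at 8 h lie above all unstimulated, 0.5 h and 1 h libraries, and the log2 changes were 4.38 ± 0.13 and 2.20 ± 0.12. Its promoter stretch with the interferon-stimulated response element is printed above and belongs to 1 of 3 annotated starts. Slc25a12, an aspartate-glutamate exchanger, also rose, from 49.2 and 50.3 CPM to 242 and 301 CPM at 8 h of LPS, and to 67.3 and 67.2 CPM at 8 h of TNF. Falls were led by the ornithine carrier Slc25a15, from 19.8 and 21.8 CPM to 3.23 and 5.31 (-2.26 ± 0.20). Slc25a25, a calcium-regulated ATP-magnesium/phosphate carrier, was an early riser, at 56.5 and 46.7 CPM by 0.5 h of LPS from 17.2 and 20.4. Its relative Slc25a23 fell after LPS (-1.11) and after TNF (-1.15), the latter at an adjusted p of 0.041 that is lost without the 0.5 h or the 3 h LPS libraries. The mitochondrial iron carrier Slc25a37 rose at 3 h of LPS in both genotypes (147 and 132 CPM from 31.1 and 32.05). By 8 h the wild-type library held 85.8 CPM and the RelA-TA-KI library 11.5.

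Of 21 zinc, copper and magnesium carriers, 9 rose and 9 fell after LPS (4 and 14 by library totals), or 42.9% each way. Of all genes 35.8% rose and 36.4% fell. After TNF 7 rose and 1 fell (5 and 4), or 33.3% and 4.76%, beside 16.7% and 13.6% of all genes. The copper transporter Slc31a2 (ENSMUSG00000066152.9, chromosome 4, 62262562 to 62298411, plus strand) rose in wild-type cells from 42.4 CPM to 40.7, 90.2, 203 and 566 CPM after LPS and 54.4, 85.1, 163 and 188 CPM after TNF. In RelA-TA-KI cells the values were 36.4 CPM, then 43.8, 54.5, 108 and 774 CPM and 36.98, 52.01, 117 and 176 CPM. From 1 h on, every stimulated library exceeded both unstimulated ones, and the log2 changes at 8 h were 4.13 ± 0.31 and 2.22 ± 0.29. Slc31a1, the main copper importer of the cell surface, had a smaller change, of 0.93 after LPS by TMM and of -0.02 by library totals. Slc30a1 (ENSMUSG00000037434.7, chromosome 1, 191906767 to 191913247, plus strand), the zinc exporter of the plasma membrane, stood at 61.1 CPM in wild-type cells and at 53.2, 58.4, 247 and 396 CPM after LPS. RelA-TA-KI cells went from 68.9 to 59.2, 109.6, 466 and 388 CPM. All libraries at 3 and 8 h of either agent exceed all unstimulated and 0.5 h ones. Its log2 change was 2.60 ± 0.25 after LPS and 1.88 ± 0.24 after TNF. Slc39a1, a zinc importer, rose after LPS (1.43) and TNF (0.96). Slc30a5, which loads zinc into the secretory pathway (-1.495), and the zinc importers Slc39a10 (-1.47) and Slc39a8 (-0.69) fell after LPS, and Slc39a8 also after TNF (-1.28). Slc41a2, a magnesium transporter, fell after LPS (-0.47 at 8 h) and rose after TNF (0.83 at 3 h).

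Inorganic ion and pH carriers split 10 up and 9 down of 22 after LPS (7 and 14 by library totals) and 6 and 6 after TNF (6 and 8). In shares this is 45.5% and 40.9% after LPS, beside 35.8% and 36.4% of all genes. After TNF it is 27.3% each way, beside 16.7% and 13.6%. Slc12a9 (ENSMUSG00000037344.11, chromosome 5, 137314558 to 137333597, minus strand), of the cation-chloride cotransporter family, went in wild-type cells from 16.9 CPM to 20.8, 18.6, 31.9 and 134 CPM and in RelA-TA-KI cells from 18.6 to 23.3, 18.6, 39.1 and 188 CPM after LPS. Its 8 h TNF values were 27.5 and 33.8 CPM. Both LPS libraries at 3 h lie above their unstimulated library, and those at 8 h far above it (3.17 ± 0.13), and the 8 h TNF value lay above the unstimulated one in both genotypes (0.78 ± 0.14). The potassium-chloride cotransporters Slc12a7 (1.90) and Slc12a4 (1.52) and the mitochondrial sodium-calcium exchanger Slc8b1 (1.97) rose as well. The sodium-potassium-chloride cotransporter Slc12a2 fell (-1.99). Slc26a11, a lysosomal and surface anion transporter, fell in wild-type cells from 35.3 CPM to 32.6, 25.5, 8.299 and 4.19 CPM and in RelA-TA-KI cells from 35.8 to 34.9, 28.1, 3.88 and 2.36 CPM after LPS. TNF left it at 28.1 and 32.5 CPM at 3 h and 12.2 and 12.8 at 8 h. Both stimuli thus lowered it, with log2 changes of -3.45 ± 0.27 and -1.50 ± 0.19 at 8 h, and the LPS fall was already present at 3 h.

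The phosphate importer Slc20a1 (ENSMUSG00000027397.12, chromosome 2, 129198764 to 129211616, plus strand) had a course of both signs. Wild-type cells held 133 CPM unstimulated and 182, 195, 55.97 and 22.6 CPM after LPS, and RelA-TA-KI cells 138 and then 242, 298, 126 and 12.4 CPM. In both genotypes the 0.5 and 1 h libraries lie above the unstimulated library and the 8 h library below it, and at 3 h the RelA-TA-KI library held more than its wild-type partner. The largest change was the fall at 8 h (-2.96 ± 0.34, adjusted p = 1.3e-05), while TNF values stayed between 122 and 213 CPM (adjusted p = 0.49). Its relative Slc20a2 fell after LPS (-2.17) and TNF (-1.12). The endosomal sodium-proton exchanger Slc9a9 changed late, from 202 and 223 CPM to 85.2 and 113 at 8 h of LPS and 74.5 and 87 at 8 h of TNF. At 3 h its values were still between 199.5 and 241 CPM.

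Vitamin, folate and heme carriers mostly fell after LPS, 6 of 8 against 1 that rose (7 and 1 by library totals), with a median of -1.27. The share that fell was 75%, beside 36.4% of all genes. After TNF 2 rose and 3 fell (1 and 4), or 25% and 37.5%, beside 16.7% and 13.6% of all genes. The member that rose after LPS was Slc23a2 (ENSMUSG00000027340.13, chromosome 2, 132052496 to 132145108, minus strand), the sodium-coupled vitamin C transporter. It went in wild-type cells from 139.6 CPM to 163, 186, 567 and 341 CPM and in RelA-TA-KI cells from 157 to 178, 235, 973 and 497 CPM. The peak was at 3 h in both genotypes (2.34 ± 0.14), and TNF at 8 h gave 198 and 263 CPM (0.62 ± 0.13). Slc48a1 (ENSMUSG00000081534.2, chromosome 15, 97784355 to 97792692, plus strand), which carries heme out of the phagolysosome, fell from 257 CPM to 236, 218, 186 and 128 CPM after LPS in wild-type cells and from 243 to 228, 217, 172 and 104 CPM in RelA-TA-KI cells. With TNF it went to 237, 251, 314 and 448 CPM and 231, 237, 263 and 309 CPM. The 8 h libraries thus lie below the unstimulated ones for LPS (-1.11 ± 0.12) and above them for TNF (0.59 ± 0.12, adjusted p = 0.0019, but 0.061 by library totals).

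Other vitamin carriers fell. The thiamine transporter Slc19a2 went from 16.4 and 10.2 CPM to 3.23 and 0.885 at 8 h of LPS (-2.72 ± 0.38). After TNF its change was -1.08 ± 0.26 at 3 h, a call that is lost without the 8 h TNF libraries. Slc5a6, which takes up biotin and pantothenate, went from 6.79 and 6.804 CPM to 0.968 and 0.885, or 3 counts in each library. The folate carriers Slc19a1 (-1.23) and Slc46a1 (-1.31) fell after LPS. Slc46a3, a lysosomal carrier, fell after LPS (-1.63 ± 0.16) and after TNF (-1.41 ± 0.14), and its 4 libraries at 8 h lie below all libraries up to 1 h.

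Lipid and choline carriers are 5, of which 3 rose and 1 fell after LPS (2 and 3 by library totals) and 2 rose after TNF (2). The shares are 60% and 20% after LPS, beside 35.8% and 36.4% of all genes. After TNF they are 40% and 0%, beside 16.7% and 13.6%. The choline transporter Slc44a1 (ENSMUSG00000028412.15, chromosome 4, 53440413 to 53622478, plus strand) rose after both agents. Wild-type cells went from 56.3 CPM to 62.1, 83.4, 356 and 326 CPM after LPS and 58.5, 77.2, 208 and 256 CPM after TNF. RelA-TA-KI cells went from 68.04 CPM to 71.5, 75.4, 378 and 512 CPM and 72.6, 72.4, 271 and 493 CPM. The 8 libraries at 3 and 8 h lie above all the others, with changes of 2.73 ± 0.22 and 2.56 ± 0.22 at 8 h. Slc44a2, of the same family, rose by 1.53 and 0.89. Slc33a1, which brings acetyl-CoA into the endoplasmic reticulum, fell slightly at 3 h of LPS (-0.39).

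The class called nucleotide sugar carriers takes every member of the Slc35 family by its number, whether or not its own substrate is a nucleotide sugar. It holds 20 genes, of which 6 rose and 10 fell after LPS (none and 19 by library totals). These are 30% and 50%, beside 35.8% and 36.4% of all genes. After TNF 1 rose and 4 fell (none and 8), or 5% and 20%, beside 16.7% and 13.6% of all genes. Slc35c1 (ENSMUSG00000049922.8, chromosome 2, 92452764 to 92460538, minus strand), the Golgi carrier of GDP-fucose, went in wild-type cells from 46.2 CPM to 45.97, 37.1, 16.8 and 15.8 CPM and in RelA-TA-KI cells from 48.5 to 34.3, 32.4, 12.1 and 5.603 CPM after LPS. At 8 h of TNF it held 44.4 and 31.2 CPM. The LPS values at 3 and 8 h lie below all others (-2.18 ± 0.28, against -0.67 ± 0.22 and an adjusted p of 0.21 after TNF). Slc35c2, a related gene of the fucose pathway, fell after LPS (-1.53) and TNF (-0.52). Slc35g1, a family member without a settled substrate, had the largest fall of the 161 genes (-3.59 ± 0.35 at 8 h of LPS). It rests on few reads, with 8.28 and 7.16 CPM unstimulated and 2 counts in each 8 h LPS library. The rises were small, led by Slc35d1, a carrier of UDP-sugars (0.85 at 3 h).

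Carboxylate and organic ion carriers are 10 genes. Of these, 1 rose and 3 fell after LPS (none and 9 by library totals), and 1 and 2 after TNF (1 and 4). The shares are 10% and 30% after LPS, beside 35.8% and 36.4% of all genes. After TNF they are 10% and 20%, beside 16.7% and 13.6%. Slc16a6, of the monocarboxylate family, went in wild-type cells from 120.2 CPM to 125, 102, 36.2 and 70.6 CPM after LPS and 115, 103, 44.1 and 42.4 CPM after TNF. RelA-TA-KI cells went from 94.5 CPM to 106, 110, 34.3 and 48.95 CPM and 114, 95.1, 43.1 and 33.02 CPM. All 8 libraries at 3 and 8 h lie below all the others, with changes of -1.60 ± 0.14 at 3 h of LPS and -1.51 ± 0.13 at 8 h of TNF. Slc22a4, which carries ergothioneine and carnitine, rose after TNF, from 12.1 and 8.41 to 26.4 and 30.1 CPM at 8 h (1.44 ± 0.24), and stood at 6.45 and 9.14 CPM at 8 h of LPS. Of the 3 genes named after a carrier, Slc7a6os fell after LPS (-1.56; all 3 by library totals) and none passed the test after TNF (1 fell by library totals).

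**Figure D3:**
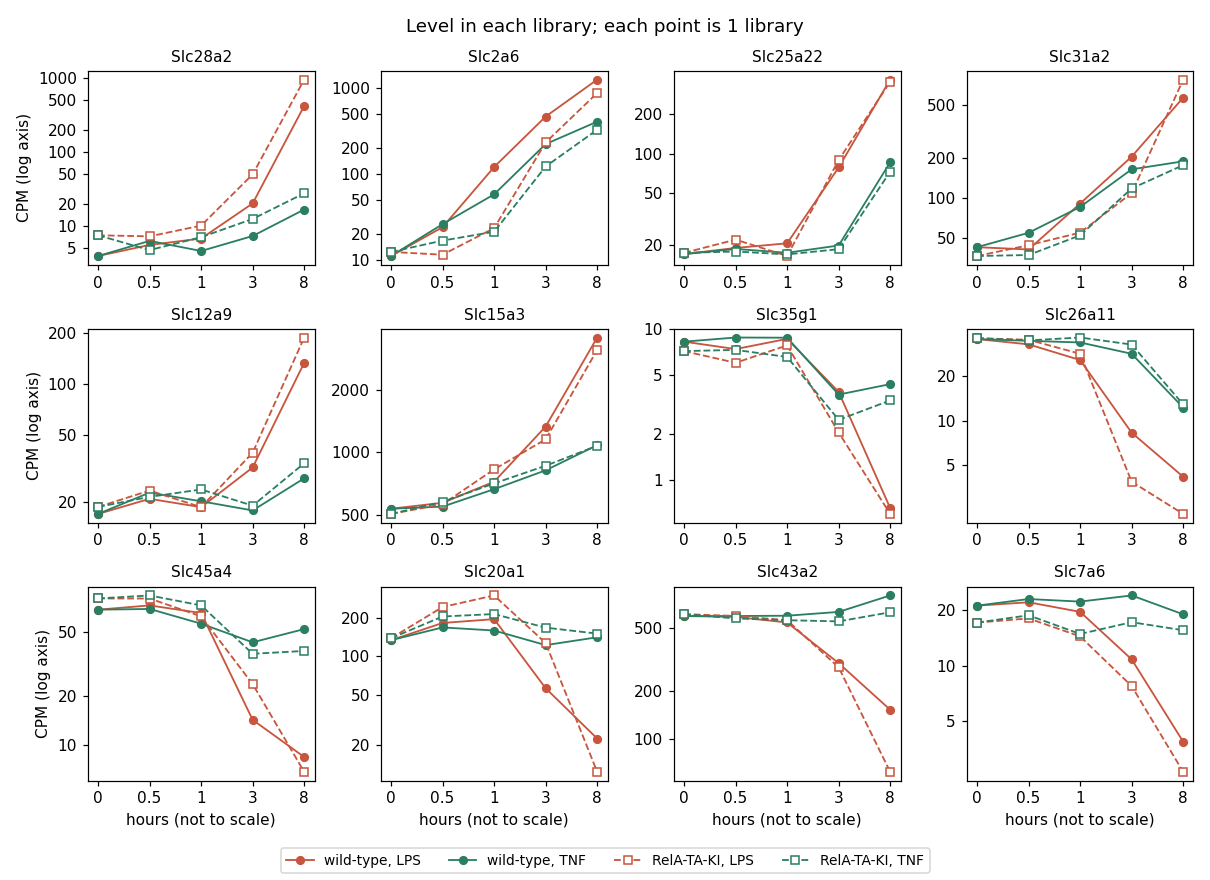
CPM (log axis) of 12 solute carrier genes in each library over time after LPS (red) and TNF (green), in wild-type (filled, solid) and RelA-TA-KI cells (open, dashed). Each point is 1 library and 0 h is the shared unstimulated library. Slc28a2, Slc2a6, Slc25a22, Slc31a2, Slc12a9 and Slc15a3 climb to their highest values at 8 h of LPS in both genotypes, and the other 6 genes stand below their unstimulated level there.

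LPS and TNF were then compared at matched times, at 4 times in each genotype. The doses differ (100 and 10 ng/ml), so the contrast is between these 2 treatments. Of the 161 genes, 31 were higher and 46 lower after LPS than after TNF, where 23.7% and 25.2% of all genes were. By library totals 12 members were higher and 118 lower, beside 1172 and 7054 of all genes. The count rests on the last time: without the 8 h libraries of LPS 18 and 17 members were called, and without those of TNF 13 and 12. Calls over all genes fell likewise, from 2682 and 2848 to 1354 and 1135, and to 1114 and 819. Nucleotide sugar carriers had 10 members lower with LPS and none higher (19 and none by library totals), inorganic ion carriers 7 higher and 4 lower (3 and 13), and amino acid carriers 6 higher and 7 lower (3 and 15).

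The genes furthest above TNF were Slc28a2 (1.84 ± 0.15, mean over the times) and Slc25a22 (1.14 ± 0.06), each higher with LPS in 7 of 8 matched pairs of libraries. Slc23a2 (0.87 ± 0.07) and Slc12a7 (0.82 ± 0.11) were higher in 8 of 8. Slc12a9 (0.77; lost without the 8 h TNF libraries), Slc2a6 (0.74; lost without the 3 h or 8 h libraries of either agent, by library totals, by limma-voom and with no filter) and Slc25a12 (0.72) followed. For Slc32a1, a vesicular transporter of inhibitory neurotransmitters, the difference (0.83) rests on at most 32 counts and is lost without the 8 h libraries of either agent, without the 3 h TNF libraries and by library totals. Furthest below were Slc26a11 (-1.16 ± 0.11), Slc43a2 (-0.96 ± 0.12; lost without the 8 h TNF libraries), Slc7a6 (-0.94 ± 0.07, lower in 8 of 8) and Slc45a4 (-0.92 ± 0.11; lost without the 8 h LPS libraries). For Slc7a6, wild-type cells with TNF held 23.1, 22.4, 24.1 and 19.1 CPM, near the unstimulated 21.2, and with LPS 22.2, 19.7, 10.8 and 3.87 CPM. Slc35c1 (-0.80) and the monocarboxylate carrier Slc16a13 (-0.79) were also lower. Slc20a1 (-0.79) and Slc35g1 (-0.71) were lower too, but only with the 8 h libraries included, without which the differences were -0.05 or -0.04 and -0.08. Slc48a1 was lower with LPS in 8 of 8 pairs (-0.64 ± 0.06, adjusted p = 1.6e-06).

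RelA-TA-KI cells were compared with wild-type cells over the 9 matched conditions. Of the 161 genes 25 were higher and 13 lower in RelA-TA-KI, against 10.3% and 9.46% of all genes tested. By library totals 14 members were higher and 28 lower, beside 706 and 1815 of all genes. The balance of directions thus turns with the scaling, for the members as for all genes. Without the 0.5, 1 or 8 h pair of TNF 8 members were lower. Of the 38 differences, 1 exceeded 1 on the log2 scale, that of Slc30a4. Ion carriers held 6 higher and 4 lower of 22 (2 and 8 by library totals), metal carriers 5 and 2 of 21 (2 and 3), and nucleotide sugar carriers 3 and 1 of 20 (1 and 1). Markers of other cells moved with genotype: 4 of 4 stromal markers tested were lower in RelA-TA-KI (summed level 13.64 to 71.52 CPM, against 98.01 to 191.9 in wild-type), and of 7 neutrophil markers tested 5 were lower and 1 higher (96.3 to 187.1 against 109.2 to 253.7 CPM, with Ly6g under 1 CPM everywhere). Of 4 dendritic cell markers tested 2 were lower, and Il7r, the 1 lymphocyte marker tested, was higher by 0.62. None of the 2 mast cell and basophil markers tested was called. Macrophage markers moved as well: of 8 tested, Fcgr1 (0.92), Cd68 (0.36) and Itgam (0.34) were higher and Csf1r (-0.24) and Lyz2 (-0.18) lower. The part of other cells in the results was not tested.

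Slc30a4 (ENSMUSG00000005802.10, chromosome 2, 122681233 to 122702663, minus strand), which moves zinc into vesicles, had the largest genotype difference. Its unstimulated level was 16.6 CPM in the wild-type library and 27.04 CPM in RelA-TA-KI. With LPS the values were 13.4, 15.4, 41.5 and 16.4 CPM in wild-type and 29.3, 37.7, 91.6 and 86.7 in RelA-TA-KI. With TNF they were 17.2, 14.2, 20.3 and 16.4 and 28.8, 34.5, 44.7 and 45.5 CPM. The RelA-TA-KI library is the higher one in 9 of 9 pairs, though the groups as a whole overlap because the wild-type library at 3 h of LPS reached 41.5 CPM. The mean levels were 19.04 and 47.3 CPM, the log2 ratio 1.23 ± 0.13 and the adjusted p 6.2e-05. Slc27a1, a fatty acid transporter, was higher in 9 of 9 pairs by 0.60 ± 0.05, with 118 CPM unstimulated and 129.5, 142, 116 and 89.99 CPM through LPS in wild-type cells. Its RelA-TA-KI values were 160.2 and 184, 203, 207 and 159 CPM. All 9 RelA-TA-KI libraries of Slc27a1 lie above all 9 wild-type libraries.

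For Slc28a2 the RelA-TA-KI library was higher in 8 of 9 pairs (0.81 ± 0.14), and at 8 h of LPS it held 943 CPM against 417. The creatine transporter Slc6a8 (0.47 ± 0.10), Slc37a2 (0.46 ± 0.09), Slc35e4 (0.44 ± 0.08), Slc46a3 (0.42 ± 0.07), the mitochondrial citrate carrier Slc25a1 (0.37 ± 0.04), the vitamin C transporter Slc23a2 (0.36 ± 0.06) and the taurine transporter Slc6a6 (0.34 ± 0.06) were each higher in 9 of 9 pairs. Slc25a1 stood at 75.7 CPM in the unstimulated wild-type library and at 105 in its RelA-TA-KI partner. Slc30a1 (0.43 ± 0.11) and Slc41a2 (0.39 ± 0.07) were higher in 8 of 9. The call for Slc30a1 is lost without the 3 h LPS pair and by library totals (adjusted p = 0.061), and with no filter. Slc9a9 was also called (0.22), being higher in 9 of 9 pairs.

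The lowest ratio in RelA-TA-KI was that of Slc2a6 (-0.89 ± 0.21, 8 of 9 pairs, adjusted p = 0.013), whose unstimulated pair did not differ in that direction (11.2 CPM in wild-type and 12.5 in RelA-TA-KI). Slc24a5, of the potassium-dependent sodium-calcium exchangers, was lower in 9 of 9 pairs (-0.86 ± 0.13). Its wild-type values were 19.4 CPM unstimulated, 16.3, 20.4, 24.5 and 33.9 CPM after LPS and 25.4, 21.4, 23.02 and 23.7 CPM after TNF. The RelA-TA-KI values were 12.5 CPM, then 12.4, 10.9, 12.8 and 7.37 CPM and 12.9, 14.4, 14.98 and 12.1 CPM, so every RelA-TA-KI library lies below every wild-type one. Slc24a5 shares 921 exon bases with Myef2 on the other strand. The Golgi sodium-proton exchanger Slc9a7 (-0.60 ± 0.08), Slc12a2 (-0.55 ± 0.07), the zinc importer Slc39a8 (-0.44 ± 0.07) and Slc7a6 (-0.39 ± 0.06) were each lower in 9 of 9 pairs. Slc29a1 (-0.24) was lower in 8 of 9. The thiamine transporter Slc19a2 (-0.41) also passed, being lower in 7 of 9 pairs. Slc24a3, Slc35g1, Slc43a3, the Golgi zinc carrier Slc30a7 and the pyrimidine nucleotide carrier Slc25a36 passed narrowly (adjusted p between 0.024 and 0.049), and each lost the call without at least 1 pair.

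**Figure D4:**
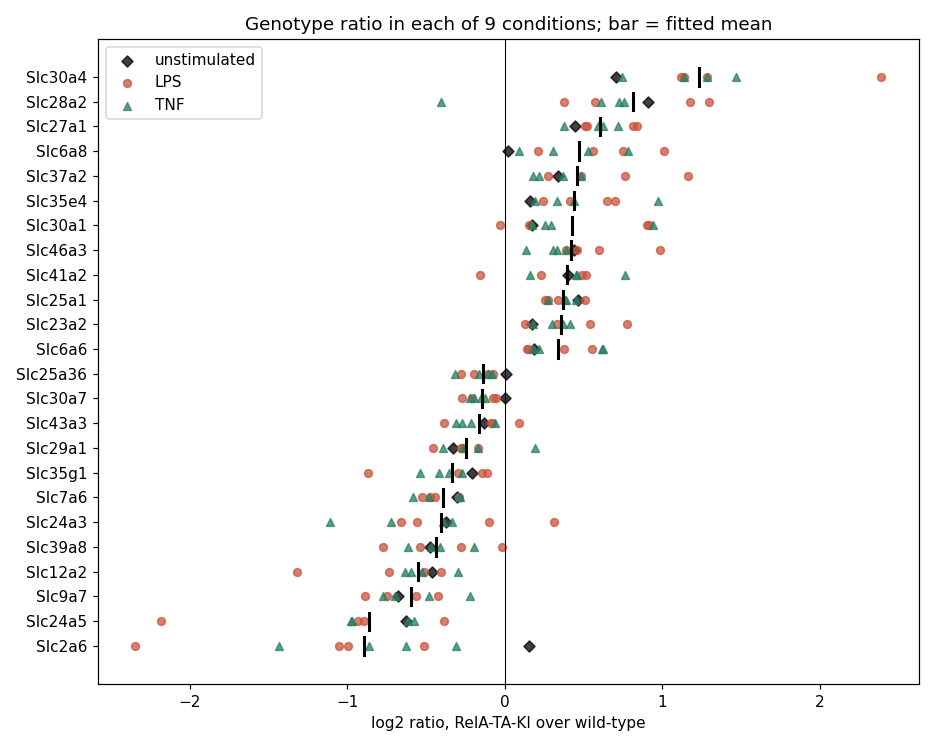
Log2 ratio of RelA-TA-KI over wild-type CPM in each of the 9 conditions for 24 solute carrier genes called for genotype, 12 higher and 12 lower. Points are the unstimulated pair (diamonds), LPS pairs (circles) and TNF pairs (triangles), and the bar is the fitted mean, 1.23 for Slc30a4 and -0.89 for Slc2a6; by library totals these are 1.15 and -0.98.

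Whether the genotype difference depended on the stimulus or on time was tested directly. Averaged over the 4 times, no member's genotype difference was called as differing between LPS and TNF (0 of 161, and 0% of all genes in either direction, by edgeR). At an unadjusted p under 0.05 there were 4 members (2.48%, beside 5.1% of all genes), and DESeq2 and limma-voom called none of the members. When the 3 and 8 h conditions were set against those at 0.5 and 1 h, edgeR again called none of the members, where it called 0.318% of all genes as higher and 0.0796% as lower. Here 22 members had an unadjusted p under 0.05 (13.7%, beside 11.8% of all genes), and the lowest adjusted p of a member was 0.074. Over all genes DESeq2 called 91 as higher and 31 as lower, and limma-voom 47 and 9. Each of the 2 called 1 member, Slc6a6, named here after its values were seen. For it the late difference exceeded the early one by 0.38 (DESeq2, adjusted p = 0.0039) and 0.37 (limma-voom, adjusted p = 0.034) on the log2 scale. With no filter on low counts edgeR called Slc6a6, Slc28a2, Slc12a7 and Slc6a8, all in the same direction, where it called 102 of all genes as higher and 50 as lower. Without the 3 h LPS pair it called Slc6a6 and Slc12a7, and without the 8 h LPS pair Slc6a6 and Slc8b1. Over all genes these fits called 53 and 59 as higher and 15 and 17 as lower.

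Genes that act beside the carriers were described from lists, with values by TMM only. The counts stand beside 35.8% of all genes that rose and 36.4% that fell after LPS, and 16.7% and 13.6% after TNF. For genotype 10.3% of all genes were higher in RelA-TA-KI and 9.46% lower. Of 5 metal-buffering genes tested, 3 rose and 2 fell after LPS (the metallothioneins Mt1, -1.40, and Mt2, -1.61, which bind zinc and copper). For genotype 2 of the 5 were higher in RelA-TA-KI, Mt1 by 0.41 and Mt2 by 0.46, and 2 were lower, the calcium- and zinc-binding S100a8 (-0.90) and S100a9 (-0.79), which are also neutrophil genes. Of 5 partner proteins, Bsg, the chaperone of monocarboxylate carriers (0.36), and Glmp, a lysosomal partner of a transporter (0.53), rose after LPS and none passed the test after TNF. Both rises lay at 8 h and are smaller than the shift of the median gene by library totals there (-0.95). Among 21 tested genes of lysosomal nutrient sensing 9 rose and 8 fell after LPS. The largest rise was that of Mitf (2.55 at 3 h). Rragd (-3.05) and Sesn1 (-4.26 at 3 h), an amino acid sensing GTPase and a stress-induced regulator, fell most. Of 19 tested genes of the ATF4 amino acid response, 8 rose and 7 fell after LPS. Nupr1 rose most (4.08 at 8 h), followed by Wars, a tryptophan tRNA ligase, at 2.80. Chac1, which degrades glutathione, fell most (-3.13 at 3 h). The ABC transporters, another membrane transporter family, had 6 of 29 tested genes up and 10 down after LPS and 4 and 5 after TNF. Their median of the largest LPS change was -0.37, beside -0.20 for all genes tested. For genotype 8 of the 29 ABC transporters were higher in RelA-TA-KI and 4 lower. Higher were also 5 of the 19 ATF4 genes, 3 of the 21 nutrient sensing genes and 1 of the 5 partners, and none of these were lower.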

How the data were processed

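Poly(A) RNA of 18 macrophage libraries was sequenced as single-end reads. The deposited table holds raw read counts per gene; per the submitters' processing notes, the authors used cutadapt 1.12, STAR, featureCounts 1.5.0 and the mm10 build, and DESeq2 is also listed. Neither the annotation nor the strand setting was given in the sources used here, and 563 gene IDs had no symbol. From these counts, edgeR 4.0.16 (R 4.3.3) was run with TMM scaling, filterByExpr (10 counts, total 15) and a robust quasi-likelihood fit on 11308 genes, with condition and genotype as terms (8 residual degrees of freedom) or with their interaction by stimulus or phase (6). Adjusted p-values are Benjamini-Hochberg values from edgeR over all genes, called at 0.05 and two-sided. A response is an F test over the 4 times, its value is the log2 change at the time of the largest change, and ± is a standard error derived from the single-contrast F statistic. The fit was also run on simulated counts with known changes, in which the other genes were flat over the libraries. No result here rests on that run.

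The members and gene lists were chosen with earlier results of these data known. Genes were named by rule: per class the most abundant per length, the 3 largest LPS and 2 largest TNF changes that passed and had the same sign in both genotypes, then over all classes the 8 largest in each direction for LPS minus TNF and, for genotype, the 12 largest in each direction among members with the same sign in at least 8 of 9 pairs. Other members named, such as Slc38a2, Slc25a25, Slc25a37, Slc5a3, Slc3a2, Slc7a8 and Slc1a5, were chosen after their values were seen. Alternatives were DESeq2 size factors, library totals, other filters, DESeq2 1.42.0, limma-voom (limma 3.58.1) and leaving out a condition's pair of libraries. Counts of members under leave-outs cover the stimulated pairs only.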

Additional observations from a re-analysis of the deposited data

Results flagged for a closer look

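For 4 members the RelA-TA-KI to wild-type log2 ratio had one sign in every pair of one set of conditions and the opposite sign in every pair of the other. This pattern alone is not a test, and in the edgeR model no member's genotype difference was called between stimuli or between times. Slc38a10, a relative of the amino acid carriers, had a mean ratio of 0.0457 over the LPS pairs and -0.0521 over the TNF pairs, a difference of 0.0978. Slc52a2, a riboflavin transporter, had -0.315 over the LPS pairs and 0.291 over the TNF pairs, a difference of -0.606. The mitochondrial ornithine carrier Slc25a15 had 0.214 at 3 and 8 h and -0.13 at 0.5 and 1 h, a difference of 0.344. Slc25a32, a mitochondrial carrier of folate or its flavin cofactor, had -0.222 late and 0.283 early, a difference of -0.506.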

How the results depend on the processing

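Scaling by library totals changed the balance of directions, among the members and among all genes. It gave 26 members higher and 122 lower after LPS, 22 and 59 after TNF, 130 called between LPS and TNF (12 higher, 118 lower) and 14 higher and 28 lower for genotype. Over all genes it gave 1974 higher and 7850 lower after LPS and 1324 and 2852 after TNF. Between LPS and TNF the counts over all genes were 1172 and 7054, and for genotype 706 and 1815. Leaving out 1 stimulated condition's pair of libraries at a time gave 79 to 130 members called after LPS (39 to 56 higher, 40 to 76 lower). After TNF it gave 20 to 75 (13 to 42 higher, 7 to 33 lower). The unstimulated pair was not left out for any of these counts. For LPS against TNF it gave 25 to 86 (13 to 33 higher, 12 to 54 lower), and for genotype 27 to 45 (19 to 27 higher, 8 to 18 lower). The lowest counts came without the 8 h pair of LPS or TNF. For the genotype difference between late and early times, 4 members were called with no filter (all 4 higher), 1 by DESeq2 and 1 by limma-voom (higher in each), and 0 to 2 when a pair was left out (0 to 2 higher). The genotype difference between LPS and TNF gave 0 calls in each leave-out of a stimulated pair. For the genes and comparisons that the naming rule picked, 1161 values under an alternative kept direction and call and 73 kept the direction but lost the call. This tally leaves out other values printed in the text, and among those the LPS changes of Slc6a6, Slc31a1 and Slc43a3 change sign by library totals. Library totals moved the median of all genes by -0.95 at 8 h of LPS, the time of the first 2, and by -0.53 at 3 h, that of Slc43a3. The cause of that shift was not tested. Requiring 10 or 50 counts in place of 20 would give 175 or 149 members. The genotypes are paired by condition in every fit, and the labels give no replicate numbers for another pairing. With 1 library per genotype and condition, a response at a single time within a genotype has no replicate, and falls that end at 2 or 3 counts, as for Slc35g1 and Slc5a6, have poorly determined sizes.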
